A study of Bos taurus with 60 samples.

Results

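Endometrial transcript abundance was compared between n-3 PUFA-supplemented beef heifers with a high and with a low level of MX2. Members were the 32 n-3 PUFA heifers of the 60 in the series, split at a value of 5.5 on the scale log2(CPM + 1) of gene ENSBTAG00000008471, where CPM is the count of a gene scaled to the total count of that heifer's library. The split gave 25 MX2-high and 7 MX2-low heifers. The classes were chosen by this measured MX2 level and by no label, so differences in transcript abundance between these classes in the same 32 heifers are given as descriptions. Their p-values serve only to define calls and are not printed. An MX2 class is not a pregnancy diagnosis, and the pregnancy status of each heifer was not analysed here.

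All heifers were nulliparous crossbred animals of continental beef breeds, with synchronised estrous cycles. They received a concentrate diet with an n-3 PUFA-enriched supplement (n = 32) or with palmitic acid (control, n = 28) for 30 days. They were inseminated and were then fed for 16 days on a low or a high plane of nutrition. By the paper, both diets were formulated with equal lipid, and the low-plane ration kept its lipid supplement after insemination. Labels of individual heifers placed 15 in the PUFA_Low group, 17 in the PUFA_High group and 14 in each of the CON_Low and CON_High groups. The design text gives the sizes of the n-3 PUFA groups the other way round. Plane enters the class comparison only as a block, so exchanging the planes would leave that comparison as it is. Such an exchange would reverse the direction of every comparison between planes in the n-3 PUFA heifers. Single-end mRNA libraries were sequenced from endometrial tissue, and each heifer contributed 1 library. Identifiers in the count table could not be paired with symbols, so the tissue's defining markers could not be examined and genes other than MX2 are given by identifier.

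MX2 encodes a dynamin-like GTPase of the antiviral response that is induced by type I interferons. In ruminants the elongating conceptus secretes interferon tau, a type I interferon, in the days around maternal recognition of pregnancy. Interferon tau reaches receptors on the endometrium, signals through the JAK-STAT pathway and raises a broad set of interferon-stimulated genes, MX2 among them. These statements are background and not results of these data.

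MX2 levels fell into separate ranges on both sides of the limit. In the 7 MX2-low heifers MX2 was at 3.69, 3.34, 3.34 and 2.43 on the log2(CPM + 1) scale in PUFA_Low replicates 3, 8, 9 and 10, and at 4.36, 3.53 and 2.78 in PUFA_High replicates 2, 11 and 15. The 25 MX2-high heifers ranged from 7.20 to 11.10 with a median of 9.74. In CPM the low class spanned 4.40 to 19.5 with a median of 9.14, and the high class spanned 146 to 2201 with a median of 856. The heifer nearest the limit from below was PUFA_High replicate 2 with 207 MX2 counts, and the nearest from above was PUFA_Low replicate 1 with 1700 counts. No heifer lay between them, and limits of 5 and of 6 gave identical classes. The fitted difference was 6.62 on the log2 scale (SE 0.557), or 98.1-fold, and it follows from the split itself.

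**Figure D1:**
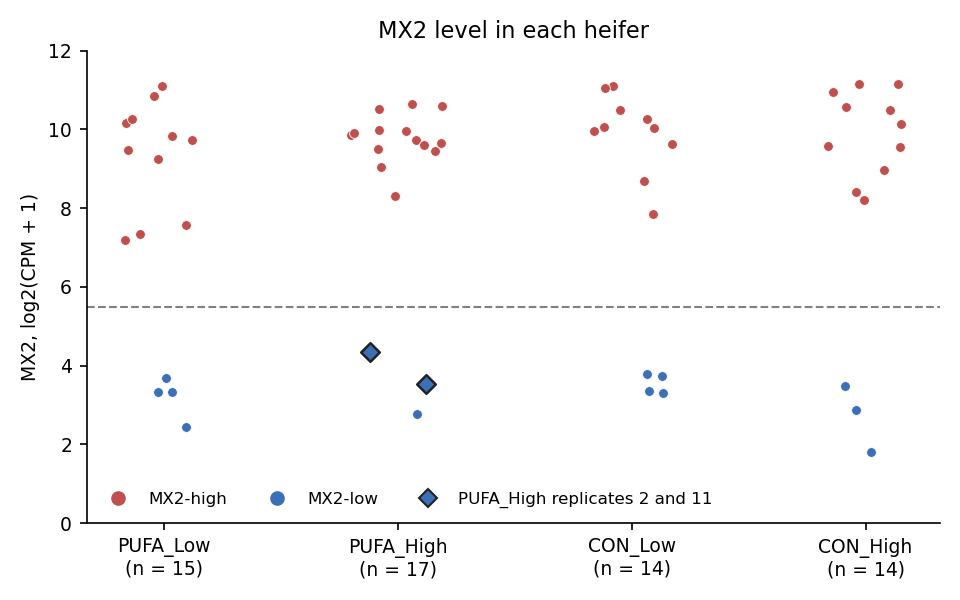
MX2 level of each heifer on the log2(CPM + 1) scale in the 4 dietary groups, with the limit of 5.5 as a dashed line and each point 1 heifer. The n-3 PUFA heifers sit either between 2.43 and 4.36 or between 7.20 and 11.10, and control heifers leave a similar gap.

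MX2-high heifers made up 11 of 15 PUFA_Low heifers (73.3%) and 14 of 17 PUFA_High heifers (82.4%), a difference that did not pass a two-sided Fisher's exact test (p = 0.678). Among control heifers, 21 of 28 (75.0%) were MX2-high under the same limit, against 25 of 32 (78.1%) with n-3 PUFA (two-sided Fisher's exact test, p = 1). Within the MX2-high n-3 PUFA heifers, the fitted MX2 difference between planes was 0.08 on the log2 scale (SE 0.356, low minus high plane). It is given without a test because the class was cut on MX2. Mean log2(CPM + 1) went the other way, at 9.35 on the low and 9.77 on the high plane. PUFA_Low replicates 1, 2 and 13 had the lowest values of the MX2-high class at 7.20, 7.35 and 7.57, and the next lowest was PUFA_High replicate 14 at 8.32.

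Depth and composition of the libraries did not differ between classes beyond the spread between heifers. Total counts ranged from 9635801 to 13943813 over the 32 heifers, with means of 11469463 ± 765605 (SD, n = 25) in MX2-high and 11483191 ± 1150866 (SD, n = 7) in MX2-low heifers (two-sided exact permutation test, p = 0.954). The number of genes with at least 1 count was 16620 ± 126 against 16610 ± 193 (p = 0.876, permutation test). The 100 most abundant genes took 23.8% ± 3.69 and 24.6% ± 4.29 of counts (p = 0.6, permutation test), and all 3 adjusted p-values were 0.954. Library codes carry 6 prefixes, whose meaning the labels do not give. Of the 7 MX2-low heifers, 3 shared the prefix JE4, which held only 1 MX2-high heifer.

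A pair of MX2-low libraries, PUFA_High replicates 2 and 11, stood apart from the rest. Both heifers lay above all 58 other heifers of the series, in CPM, for 762 of the 14425 genes tested (5.28%), and below all of them for 302 genes (2.09%). Their library codes had different prefixes. Numbers of calls and the fitted differences of the genes given by identifier are therefore given with and without these 2 heifers, a choice made after the values were seen. The distribution of fold changes, counts of genes without overlap and summed shares include them.

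Of 14425 genes tested, 336 (2.33%) were called between MX2-high and MX2-low n-3 PUFA heifers, with plane as a block and a call defined as a fold change above 1.5 with an adjusted p below 0.001. Transcripts of 254 genes (1.76%) were more abundant in MX2-high heifers and those of 82 genes (0.568%) were less abundant. Nothing is read from these shares, since the classes were made from MX2 in the same libraries. The median log2 difference over all genes was -0.01. Upper-quartile scaling gave a different split, with 218 genes higher and 131 lower. Adding the library code prefix to the model left 100 genes higher and 6 lower. In whole tissue, fewer cells of a type and less RNA per cell cannot be told apart.

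Genes more abundant in MX2-high heifers covered a wide range of differences. Their log2 differences ran from 0.60 to 6.62 (quartiles 1.08, 1.74 and 2.54). More than 2-fold higher were 205 of the 254 genes, more than 4-fold 99, more than 8-fold 42 and more than 16-fold 24. A difference above 32-fold was found for 12 genes and above 64-fold for 5, MX2 included. For 66 of the 254 genes every MX2-high heifer lay above every MX2-low heifer, and this held for 67 of the 14425 genes tested (0.464%). The reverse held for 1 of the 82 genes called lower and for no other gene tested (0.00693%).

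ENSBTAG00000039861 was, MX2 left out, 1 of the 2 higher genes with the smallest p-values. Its level was 97.8, 77.3, 67.1 and 74.3 CPM in the MX2-low PUFA_Low replicates 3, 8, 9 and 10, and 97.9, 75.7 and 63.2 CPM in PUFA_High replicates 2, 11 and 15. In MX2-high heifers it ranged from 302 to 1678 CPM with a median of 1136. Every MX2-high heifer was above every MX2-low heifer, and PUFA_High replicates 2 and 11 lay among the other MX2-low heifers. The log2 difference was 3.85 (SE 0.284), or 14.4-fold, and 3.94 (SE 0.346) without those 2 heifers.

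ENSBTAG00000007881 started from a lower level and differed more. MX2-low heifers had 15.8, 9.73, 15.1 and 5.53 CPM in PUFA_Low replicates 3, 8, 9 and 10, and 12.9, 13.0 and 10.3 CPM in PUFA_High replicates 2, 11 and 15. MX2-high heifers had 90.6 to 1302 CPM with a median of 601. The groups did not overlap. The log2 difference was 5.78 (SE 0.459), or 54.9-fold, and 5.75 (SE 0.560) without PUFA_High replicates 2 and 11.

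**Figure D2:**
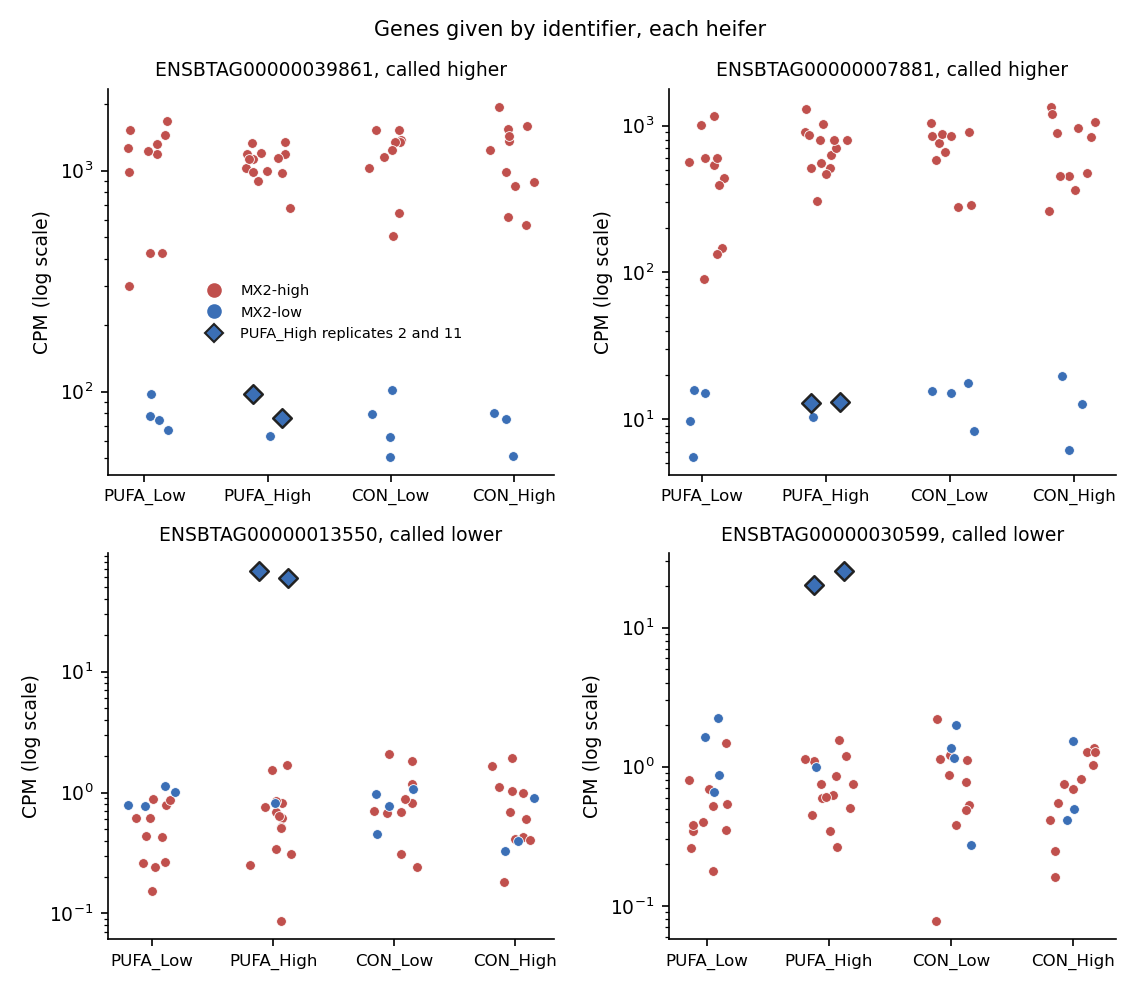
Level in CPM, on a log axis, of 4 genes given by identifier in each heifer of the 4 dietary groups, coloured by MX2 class, with PUFA_High replicates 2 and 11 as diamonds. Upper panels show genes whose MX2 classes do not overlap in either supplement group, and lower panels show genes whose MX2-low level is high in those 2 heifers, at 58.9 and 68.1 CPM and at 20.2 and 25.6 CPM.

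Leaving MX2 out, the genes called higher took together 1.91% to 6.94% of all counts in MX2-high n-3 PUFA heifers, with a median of 4.69%. In MX2-low heifers they took 0.918% to 1.57%, with a median of 1.37%. The lowest MX2-high shares, 1.91%, 2.46% and 2.81%, were those of PUFA_Low replicates 2, 1 and 13, which also had the lowest MX2. These genes were called in the same heifers, so the separation of the shares follows from that choice. Because the class shares did not overlap over all n-3 PUFA heifers, they could not overlap within a library code prefix, and prefixes add nothing here. Among control heifers, whose values did not enter the choice of genes, the same genes took 2.61% to 7.27% in the MX2-high and 1.35% to 1.98% in the MX2-low class.

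**Figure D3:**
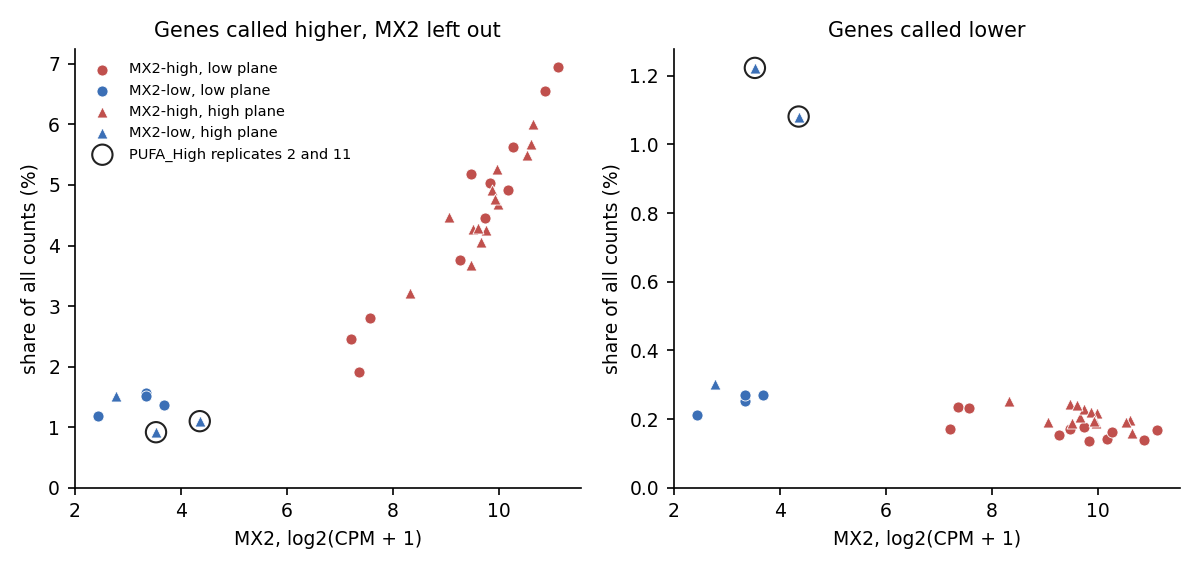
Share of all counts taken by genes called higher (left, MX2 left out) and called lower (right) against MX2 on the log2(CPM + 1) scale, with each point 1 n-3 PUFA heifer. On the left the share runs from 0.918% to 1.57% in MX2-low and from 1.91% to 6.94% in MX2-high heifers, and on the right PUFA_High replicates 2 and 11 (circled) stand at 1.08% and 1.22% with every other heifer at or below 0.301%.

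The 3 MX2-high heifers with the least MX2 were also set beside the others for the 254 genes. These genes, MX2 included, were called in the same heifers, and the 3 heifers were picked by MX2. Low levels of these genes in them are therefore partly built in, and the values are descriptions. PUFA_Low replicate 1 was above every MX2-low heifer for 170 genes, replicate 2 for 111 and replicate 13 for 185. They were below all of the other 22 MX2-high heifers for 134, 164 and 110 genes. Shares over all genes were not taken for these counts, so nothing is read from them. Below the median of those 22 heifers they had 92.5%, 98.0% and 92.1% of the 254 genes, against 67.3%, 46.2% and 47.6% of all genes tested. By its definition the MX2-high class is a range of MX2 levels on 1 side of the limit.

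Levels of the genes given by identifier were also set beside MX2 within the 25 MX2-high heifers. These genes were picked for their class difference in the same heifers and MX2 made the classes, so the correlations are descriptions without a test. Levels are on the log2(CPM + 1) scale, so each pair of values shares its library total, and 4 genes were examined. For ENSBTAG00000039861 Pearson's r was 0.92 and Spearman's rho 0.78. Without the 2 heifers farthest from the median of MX2, r was 0.87. Within the low plane r was 0.95 (n = 11) and within the high plane 0.85 (n = 14).

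For ENSBTAG00000007881 r was 0.94 and rho 0.85, r was 0.89 without the 2 farthest heifers, and r was 0.97 within the low and 0.90 within the high plane. Values for the genes named as lower were nearer to 0 or differed between planes. In MX2-high heifers ENSBTAG00000013550 and ENSBTAG00000030599 reached at most 1.70 and 1.55 CPM. Their correlations rest on few counts and say little beside those of the higher genes. ENSBTAG00000013550 had r = -0.12 and rho = -0.16, with r = -0.36 without the 2 farthest heifers, 0.08 within the low and -0.54 within the high plane. Its rho was 0.01 within the low and -0.27 within the high plane. Without the 2 farthest heifers of each plane r was -0.20 and -0.01, so the difference between planes rested on few heifers. ENSBTAG00000030599 had r = 0.07 and rho = 0.10, with r = -0.01 without the 2 farthest heifers, 0.07 within the low and -0.12 within the high plane.

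Genes called lower in MX2-high heifers rested largely on PUFA_High replicates 2 and 11. Both heifers were above all 30 other n-3 PUFA heifers for 57 of the 82 genes (69.5%), against 994 of all 14425 genes (6.89%). Without these 2 heifers 3 genes were called lower (0.0206% of 14562 tested) and 91 higher (0.625%). All 3 of the lower and 90 of the 91 higher genes were among those called with both heifers included. Without both heifers, 74 of the 82 genes (90.2%) kept a log2 difference below 0. At a limit of 0.10, 32 of them (39.0%) were called lower, beside 254 of all 14562 genes. Of the 253 higher genes other than MX2, 248 (98.0%) were called higher at that limit, beside 731 of all genes. The 82 and 253 genes were called in heifers that include these 30. The numbers kept are therefore largely built in and are descriptions. The median log2 difference of the 82 genes was -1.15 with both heifers and -0.55 without them. For the 253 higher genes other than MX2 it was 1.74 and 1.57.

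ENSBTAG00000013550, the lower gene with the smallest p-value, showed this most plainly. PUFA_High replicates 2 and 11 had 68.1 and 58.9 CPM. The other MX2-low heifers had 1.00, 0.79, 0.77 and 1.12 CPM in PUFA_Low replicates 3, 8, 9 and 10 and 0.81 CPM in PUFA_High replicate 15, within the MX2-high range of 0.0862 to 1.70 CPM (median 0.612). The log2 difference was -4.28 (SE 0.559) with both heifers, and -0.64 (SE 0.389) and not called without them.

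ENSBTAG00000030599 had 20.2 and 25.6 CPM in PUFA_High replicates 2 and 11. The other MX2-low heifers had 2.22, 0.88, 1.62 and 0.66 CPM in PUFA_Low replicates 3, 8, 9 and 10 and 1.00 CPM in PUFA_High replicate 15, and MX2-high heifers ranged from 0.179 to 1.55 CPM with a median of 0.601. PUFA_Low replicates 3 and 9 were above the MX2-high range, and the other 3 were within it. The log2 difference was -3.09 (SE 0.408) with both heifers, and -0.96 (SE 0.349) and not called without them.

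The 82 genes took 0.137% to 0.252% of all counts in MX2-high heifers, with a median of 0.191%. They took 1.08% and 1.22% in PUFA_High replicates 2 and 11, and 0.212% to 0.301% in the other 5 MX2-low heifers. Leaving out 1 heifer at a time moved the counts of calls most for the same heifers. Without PUFA_High replicate 11, 140 genes were called higher and 12 lower, and without PUFA_High replicate 2, 155 were called higher and 35 lower. Over the other 30 heifers the total number of calls stayed within 1.5 times 336. The highest numbers were 314 higher without PUFA_Low replicate 2 and 118 lower without PUFA_High replicate 15. What sets these 2 heifers apart was not tested.

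**Figure D4:**
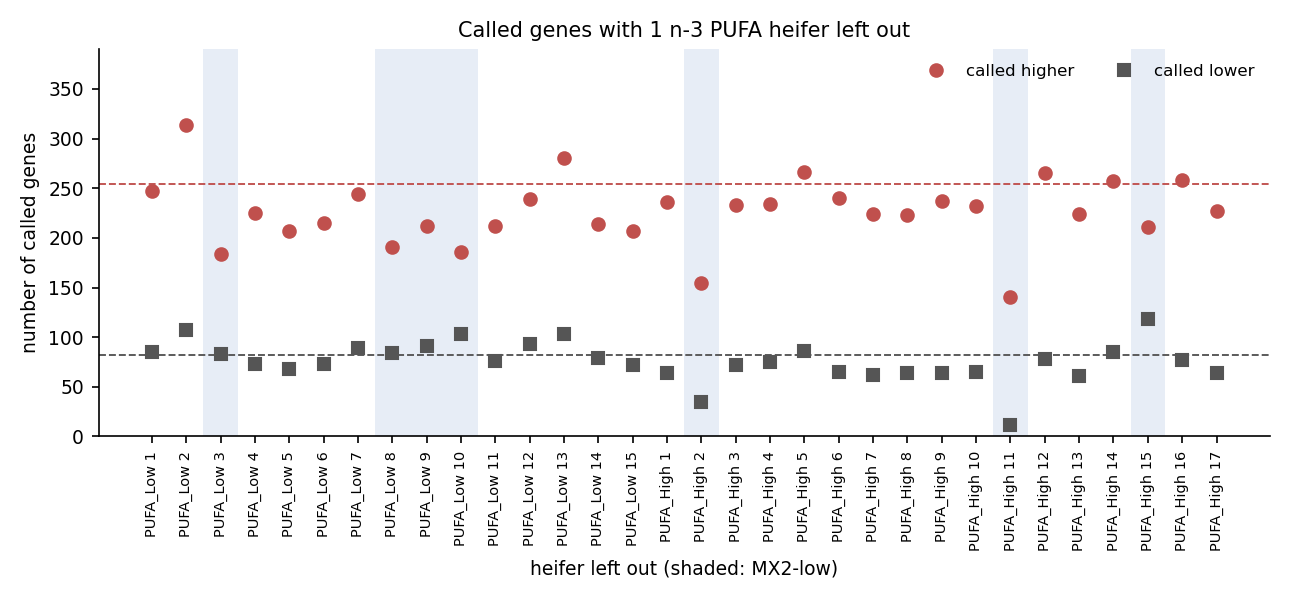
Number of genes called higher (circles) and lower (squares) in MX2-high n-3 PUFA heifers when the heifer on the horizontal axis is left out, with dashed lines at the numbers with all heifers (254 and 82) and MX2-low heifers shaded. The squares drop to 35 and 12 and the circles to 155 and 140 without PUFA_High replicates 2 and 11.

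Control heifers gave a test in animals that the choice of genes did not use. Their classes were also cut on measured MX2 and by no label, so the test is of what goes with the MX2 level. Their 21 MX2-high heifers had MX2 at 7.85 to 11.17 on the log2(CPM + 1) scale (median 10.06), and their 7 MX2-low heifers at 1.80 to 3.78 (median 3.36). Of 14424 genes tested with plane as a block, 168 were called (1.16%), 162 higher (1.12%) and 6 lower (0.0416%) in MX2-high heifers. With the library code prefix in the model 104 were called higher and 1 lower. Under a limit of 0.10 on the adjusted p-value, with the same fold limit, 563 genes were called higher (3.90%) and 213 lower (1.48%).

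Genes called higher in MX2-high n-3 PUFA heifers differed in the same direction between the control classes. Of the 253 such genes other than MX2, 252 were tested in control heifers, and the log2 difference was above 0 for all 252, with a median of 1.36 against -0.02 over all genes. At the limit of 0.001, 137 of them (54.4%) were called higher, beside the 1.12% of all genes. At the limit of 0.10, 206 (81.7%) were called higher, beside 3.90%. None was called lower at either limit. The 137 genes were 85.1% of the 161 genes other than MX2 called higher in control heifers. Of the 90 such genes called without PUFA_High replicates 2 and 11, 85 (94.4%) were called in control heifers at 0.001 and all 90 at 0.10. Of the 66 genes other than MX2 for which every MX2-high n-3 PUFA heifer lay above every MX2-low one, called or not, 54 (81.8%) had no overlap in control heifers, against 94 (0.652%) of the 14425 genes.

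ENSBTAG00000039861 ranged from 50.6 to 101 CPM (median 75.0) in MX2-low and from 507 to 1952 CPM (median 1238) in MX2-high control heifers. The classes did not overlap, and the log2 difference was 4.05 (SE 0.270, edgeR quasi-likelihood adjusted p = 2.77e-11). ENSBTAG00000007881 ranged from 6.21 to 19.7 CPM (median 15.1) and from 261 to 1352 CPM (median 838). Its classes did not overlap either, and the log2 difference was 5.77 (SE 0.390, edgeR adjusted p = 2.77e-11).

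Genes lower in MX2-high n-3 PUFA heifers mostly did not pass the limits in control heifers. Of 81 genes tested there, 73 (90.1%) had a log2 difference below 0, with a median of -0.45. Called lower were 1 gene (1.23%) at the limit of 0.001, beside 0.0416% of all genes, and 20 genes (24.7%) at 0.10, beside 1.48%. ENSBTAG00000013550 differed by 0.38 (SE 0.359, edgeR adjusted p = 0.625) and ENSBTAG00000030599 by -0.28 (SE 0.376, edgeR adjusted p = 0.743). The 82 genes together took 0.122% to 0.264% of all counts in MX2-high and 0.221% to 0.316% in MX2-low control heifers. Of the 6 genes lower in control heifers, 1 was called lower in n-3 PUFA heifers at 0.001 and 5 at 0.10. Of all 14425 genes tested in n-3 PUFA heifers, 82 (0.568%) were called lower at 0.001 and 621 at 0.10.

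**Figure D5:**
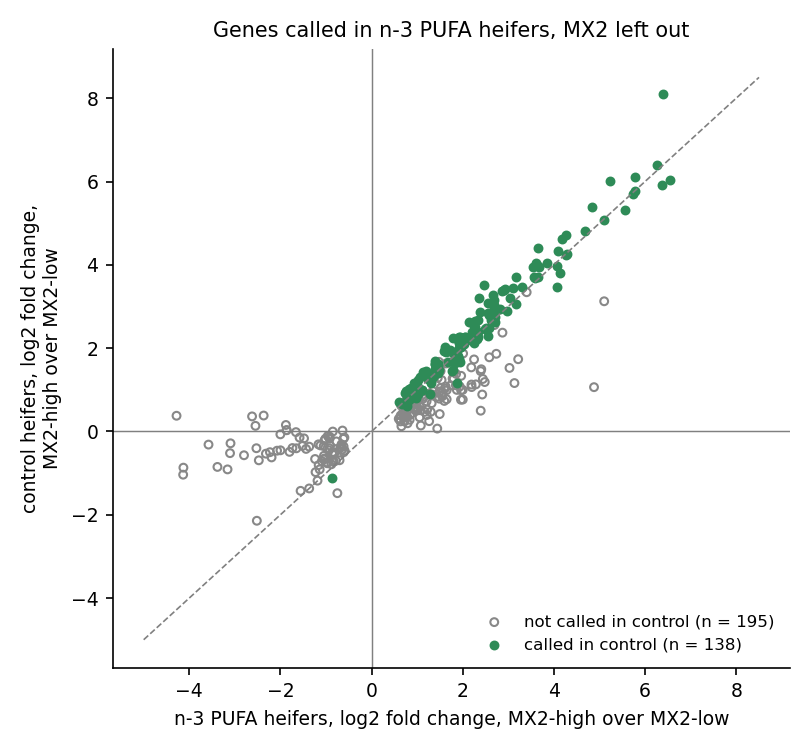
Log2 fold change of MX2-high over MX2-low in control heifers (vertical) against that in n-3 PUFA heifers (horizontal), each point 1 gene called in n-3 PUFA heifers with MX2 left out, filled where called in control heifers (138 genes), with the line of equal change dashed. The 252 genes on the right all lie above 0 in control heifers, and 73 of the 81 on the left lie below 0.

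Whether the class difference itself differed between supplements was tested in all 60 heifers. No gene of 14691 was called by edgeR at 0.001 (1143 had an unadjusted p under 0.05, and the smallest adjusted p was 0.00147). At a limit of 0.10 there were 15 genes (0.102%), and none of the 253 higher genes was among them. For ENSBTAG00000039861 the difference of differences was -0.22 (SE 0.308, edgeR adjusted p = 0.883) and for ENSBTAG00000007881 it was -0.02 (SE 0.446, edgeR adjusted p = 0.994). Of the 82 lower genes 9 were called at 0.10. Higher and lower genes alike were picked for their class difference in the n-3 PUFA heifers, which are part of this test. An excess among the lower genes is therefore partly built in, and tests of the picked genes are not independent of that choice. In 13 of the 15 genes PUFA_High replicates 2 and 11 were above the other 58 heifers. Without them no gene was called at 0.10 (789 had an unadjusted p under 0.05, and the smallest edgeR adjusted p was 0.851).

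Plane of nutrition came from the labels and was compared within the 25 MX2-high n-3 PUFA heifers (11 low plane, 14 high plane). Over 13911 genes, 129 (0.927%) were called at 0.001 and 733 (5.27%) at 0.10. With the library code prefix in the model 17 were called at 0.001. Among the 253 genes higher with MX2, none was called at 0.001 and 4 at 0.10, 2 in each direction. Their median log2 difference between planes was 0.09, low minus high, against -0.02 over all genes. For ENSBTAG00000039861 it was 0.14 (SE 0.219, edgeR adjusted p = 0.695) and for ENSBTAG00000007881 it was -0.37 (SE 0.315, edgeR adjusted p = 0.436). Of the 82 lower genes, 74 passed the filter on low counts in these heifers, none was called at 0.001 and 4 at 0.10. The lower genes given by identifier did not pass that filter.

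The class difference was also compared between planes. Of 14739 genes, 9 (0.0611%) were called at 0.001 and 250 (1.70%) at 0.10. With the library code prefix in the model edgeR called none at 0.001 (1623 had an unadjusted p under 0.05). None of the 253 higher genes was among the 250. Of the 82 lower genes 6 were called at 0.001 and 29 at 0.10, all with a lower value of MX2-high minus MX2-low on the high plane. The 82 genes were called in these same heifers, and for 57 of them PUFA_High replicates 2 and 11 lay above the other 30. That direction is therefore largely built in, and nothing is read from these counts. In 212 of the 250 genes PUFA_High replicates 2 and 11 were above the other 30 n-3 PUFA heifers. Leaving them out keeps 1 MX2-low heifer on the high plane, assumed to vary like the other groups. No gene was then called by edgeR (171 had an unadjusted p under 0.05), a count that says little with 1 heifer in that class.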

How the data were processed

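The authors aligned single-end reads with TopHat2 2.0.9 to bovine build UMD3.1 and counted reads per gene with HTSeq 0.5.4p5 (CASAVA 1.4 upstream, per the submitters' processing notes). The deposited values were raw counts of 24616 Ensembl gene identifiers in 60 heifers. Use of strand and treatment of reads with several positions were not given in the sources used here. All columns were assigned (0 unused).

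Groups and planes came from the labels. Each library was placed in an MX2 class by the CPM of ENSBTAG00000008471 (count scaled to the library's total count) plus a pseudocount of 1, at a log2 limit of 5.5. Members, comparisons and lists were chosen with earlier results of these data known. From the counts, edgeR 4.0.16 in R 4.3.3 filtered genes (filterByExpr), scaled by TMM and fitted a quasi-likelihood model for each comparison, with plane as a block in class comparisons. Benjamini-Hochberg adjustment covered all genes of a fit. A call needed an adjusted p under 0.001 and a fold above 1.5. The study's methods used the same 2 limits, and a limit of 0.10 was also applied. Fold changes are fitted values, their SE was derived from the F statistic, and printed CPM use total counts. Interactions used 1 coefficient per dietary group and class within supplement, or per plane and class. Fisher's exact and permutation tests used Python 3.11.15 and scipy 1.17.1.

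The gene table used for names (ARS-UCD2.0) pairs 0 of its genes with an Ensembl identifier, so gene lists by symbol and cell type markers were not applied. By the rule for that case, MX2 and the 2 higher and 2 lower genes with the smallest p-values in the n-3 PUFA class comparison were given. The scripts were tested on simulated counts. No library repeated another (241 pairs within groups, chi-square per gene of at least 17.4). Same-numbered heifers of the planes did not deviate together (mean correlation -0.11 over 15 pairs), so numbers do not pair them. Alternatives were upper-quartile and DESeq2 size factors, DESeq2 1.42.0, other filters, limits and blocks, robust moderation, 1 fit for all 60 heifers and leaving out each heifer. Leaving out both PUFA_High replicates 2 and 11, and adding the library code prefix to the interaction and plane fits, were alternatives chosen after seeing the data.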

Additional observations from a re-analysis of the deposited data

Results flagged for a closer look

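Within the 7 MX2-low n-3 PUFA heifers, the total count of PUFA_Low replicate 3 (13943813) lay far from the others, the nearest being 11705271. Its gap to that heifer was 0.674 of the range of the group, above the critical value of 0.568. It was 1 of 20 such checks over the MX2-low heifers of both supplements, and chance alone gives about 1 in 20.

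The class difference of ENSBTAG00000013550 differed between supplements by -4.68 on the log2 scale (n-3 PUFA minus control, edgeR adjusted p = 0.00147) and that of ENSBTAG00000030599 by -2.83 (edgeR adjusted p = 0.0354). Without PUFA_High replicates 2 and 11 the differences were -1.05 (edgeR adjusted p = 0.851) and -0.71 (edgeR adjusted p = 0.86). Between planes the class difference of ENSBTAG00000013550 differed by 5.12 (low minus high plane, edgeR adjusted p = 0.00131) and that of ENSBTAG00000030599 by 3.16 (edgeR adjusted p = 0.0193). Without both heifers these values were -0.67 and -0.90, which rest on 1 MX2-low heifer on the high plane, assumed to vary like the other groups. Both genes were chosen as the lower genes with the smallest p-values in the same n-3 PUFA heifers, so these tests are not independent of that choice.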

How the results depend on the processing

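The n-3 PUFA class comparison gave 336 calls, 254 higher and 82 lower. At an adjusted p limit of 0.05 there were 1341 (820 and 521), at 0.10 1571 (950 and 621), with DESeq2 699 (499 and 200), in 1 fit of all 60 heifers 526 (189 lower), with the library code prefix 106 (100 and 6), and without both PUFA_High replicates 2 and 11 94 (91 and 3). Upper-quartile scaling gave 131 lower genes and a median of -0.07 over all genes. Leaving out 1 heifer gave 152 to 421 calls, 140 to 314 higher and 12 to 118 lower, the lowest numbers without PUFA_High replicate 11. In control heifers the 168 calls became 592, 776, 319 and 105 under the limits of 0.05 and 0.10, DESeq2 and the prefix, and 133 to 199 leaving out 1 heifer. Between supplements 0 genes became 9, 15 and 2 under those limits and DESeq2, and 2 without a filter. Between planes in MX2-high heifers the 129 calls (116 higher on the low plane) became 627, 733 (325 higher), 352 and 17. For class by plane the 9 calls became 151, 250, 65 and 0, with 14 under a minimum of 10 counts in every library and 0 without both heifers. For the DESeq2 differences the cause was not tested.

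The replicate block gave 89 calls in n-3 PUFA heifers, all 89 higher and 0 lower (edgeR, 3363 unadjusted p under 0.05), 78 in control heifers and 0 between planes in MX2-high heifers (3238 unadjusted). Of 32 heifers, 1 correlated best with its own number. ENSBTAG00000013550 (-3.03 and -3.70) and ENSBTAG00000030599 (-2.41 and -2.79) lost their calls under the replicate block and the prefix. The remaining values, 184 counts or class measures and 217 fold changes, kept their direction and stayed on their side of the threshold or within the stated margins. The 7 MX2-low heifers limit the precision.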
